A study of Mus musculus with 24 samples.

Results

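The comparison set 4 transgenic libraries (TGA, numbers 1 to 4) against 4 wild type libraries (WT, numbers 1 to 4) of mouse liver. The members were chosen by title: they are the 8 of 24 libraries whose titles end in 2, called class 2 here, while the other titles end in 4 or 8. All mice were of the strain C3H/HeJ and carried no treatment in the labels, and the transgene, its promoter, the animals' age and the meaning of the suffix are not given there. The series title speaks of polyploid hepatocytes, so the suffix may stand for ploidy, but no label says so. The kit used for the total RNA is one made for fixed and embedded (FFPE) tissue, and libraries were read as 75 bp single ends. Nothing in the labels ties the numbers to separate animals, so a p-value speaks only of how these libraries varied, possibly for technical reasons.

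Hepatocytes make up most of the liver's mass and secrete most plasma proteins: albumin, apolipoproteins, clotting factors, complement and protease inhibitors. They also hold the enzymes of the urea cycle, of bile acid synthesis, of glucose release and of drug oxidation, with different shares near the portal and the central vein. Hepatocytes with more than a single diploid genome are common in adult rodent liver. In RNA from whole cell mixtures, fewer cells of a type and less RNA per cell cannot be told apart.

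The deposited table lists 35974 gene symbols as natural logs of a normalised count plus 1, and the values below are on the log2 scale, log2(normalised count + 1). By their values, genes were set to a common scale by rank in each library, so a gene's value tells roughly its place within its library. The scale is not exact: rank 4 held 13.42 in WT number 1 (Rorb) and 13.71 in WT number 3 (Pigr). Read depth is unknown, and the files show it only as the number of genes above 0. WT numbers 1 to 4 had 15147, 2071, 2634 and 7570 genes above 0, and TGA numbers 1 to 4 had 2816, 3810, 4847 and 6468. The TGA mean was 4485 ± 1560 genes (SD, n = 4) and the WT mean was 6856 ± 6055 (SD, n = 4), a difference within the spread (two-sided exact permutation p = 0.629). Without WT number 1 the WT mean was 4092 ± 3025 genes (SD, n = 3), and the sign of the difference turned (exact permutation p = 0.8). The smallest p that 4 against 4 libraries allow is 0.0286.

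WT number 1 stood apart from its group. Of the 4875 genes tested, those whose natural log value reached 1 in 4 or more of the 24 libraries, 1.54% were listed at 0 in WT number 1. The share at 0 was 69.5%, 64.9% and 44.3% in WT numbers 2 to 4 and 59.1%, 47.6%, 40.1% and 32.9% in TGA numbers 1 to 4. Over both groups the shares at 0 were close, at 45.1% of WT values and 44.9% of TGA values, but WT without number 1 had 59.6%. Across tested genes, which share a library and are not independent, Pearson's r of WT number 1 with the TGA libraries was 0.650 to 0.767 and with the other WT libraries 0.383 to 0.432. TGA libraries had r of 0.511 to 0.712 with each other, and WT numbers 2 to 4 had 0.304 to 0.387. By its profile WT number 1 was therefore nearer to the libraries labelled transgenic than to those of its own label. The main counts of called genes are given with and without it, and other results without it only where stated.

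**Figure D1:**
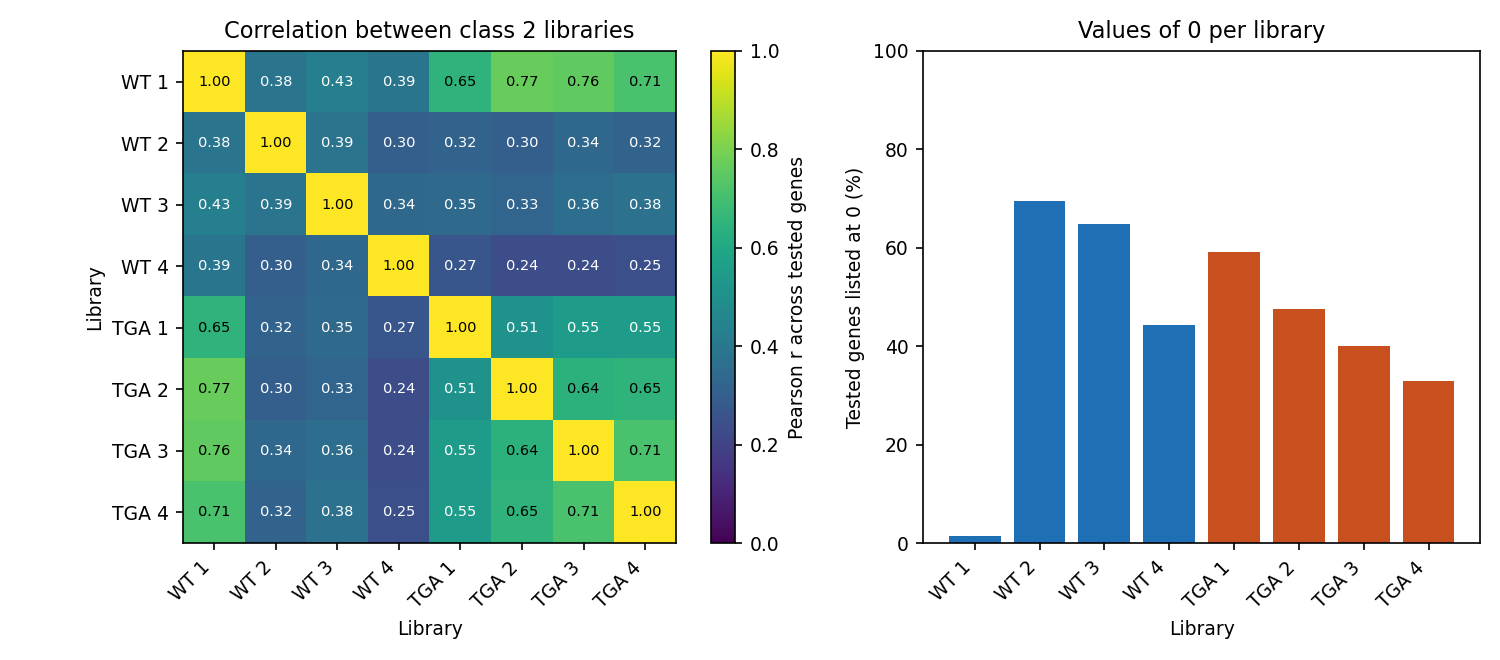
The left panel plots Pearson's r between the 8 class 2 libraries across tested genes, and the right panel the percentage of tested genes listed at 0 in each library, WT in blue and TGA in orange. WT number 1 has r of 0.650 to 0.767 with the TGA libraries and 1.54% of tested genes at 0.

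A value of 0 is not absence in these files. Gapdh, a glycolytic enzyme of every cell, was listed at 0 in WT numbers 2 to 4 and in TGA numbers 1 and 3. Actb, cytoplasmic actin, was at 0 in WT numbers 2 to 4 and in TGA number 1. Rplp0, a ribosomal protein, was at 0 in the same 4 libraries, whereas Eef1a1, the elongation factor that brings tRNA to the ribosome, was at 0 in TGA number 3 alone. The most frequent value above 0 also differed between libraries: it was a normalised count of 0.0595, 13, 6.49 and 0.516 in WT numbers 1 to 4, and 3.10, 1.48, 0.999 and 0.577 in TGA numbers 1 to 4. The labels name no gene that the transgene targets, so no gene could check them.

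Between TGA and WT, 5 of the 4875 tested genes (0.103%) passed an adjusted p of 0.05 in limma's moderated test with Benjamini-Hochberg adjustment. Apoa1, whose product is the chief protein of HDL particles, was higher in TGA (0.0205% of tested genes were called higher). The nuclear receptor gene Rorb, the long non-coding RNA gene Gm31305, the predicted protein-coding gene LOC108168367 and Arsb, the lysosomal sulfatase that removes sulfate from dermatan and chondroitin sulfate, were lower (0.0821% called lower). At an unadjusted p under 0.05, 320 genes were higher (6.56%) and 105 lower (2.15%). With each library centred on its mean, that split was 237 higher and 172 lower, and 5 genes passed the adjusted threshold, 1 higher and 4 lower. Over all tested genes the median difference, TGA minus WT, was 0.15, and it was -0.14 after centring. The 4 TGA and 4 WT values did not overlap for 53 genes with TGA higher (1.09%) and for 105 with TGA lower (2.15%).

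Leaving out WT number 1 raised the count to 54 genes (1.11%), 45 higher (0.923%) and 9 lower (0.185%), and all 5 genes were among them. Leaving out any of WT numbers 2, 3 or 4 left 2 genes, as did leaving out TGA number 4. Leaving out TGA number 1 left 3 genes. Leaving out TGA number 2 gave 3 genes, 2 of them among the 5 called with all libraries. Leaving out TGA number 3 gave 5 genes, 3 of them among those called with all libraries.

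The promoters of 4 genes are shown, those of the gene that rose, of the gene for albumin, and of Rorb and Arsb, which fell. Each is the 120 bases before a transcription start, from RefSeq on GRCm38.p6. Rorb has 2 starts in that table, and the window of the first one listed is printed. Apoa1 is at chr9:46228510-46228629 on the plus strand, Alb at chr5:90460750-90460869 on the plus strand, Rorb at chr19:19111197-19111316 on the minus strand and Arsb at chr13:93771559-93771678 on the plus strand. Capitals mark a CCAAT box, a GC box (GGGCGG) or a pair of C/EBP half-sites (TTGCNNAA) on either strand.
Apoa1: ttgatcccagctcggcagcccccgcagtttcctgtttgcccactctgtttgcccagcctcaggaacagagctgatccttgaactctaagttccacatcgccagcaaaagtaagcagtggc
Alb: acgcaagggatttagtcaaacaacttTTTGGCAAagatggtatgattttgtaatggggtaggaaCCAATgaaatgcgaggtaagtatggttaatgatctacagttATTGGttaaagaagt
Rorb: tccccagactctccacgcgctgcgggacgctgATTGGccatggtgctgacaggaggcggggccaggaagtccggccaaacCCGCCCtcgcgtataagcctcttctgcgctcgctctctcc
Arsb: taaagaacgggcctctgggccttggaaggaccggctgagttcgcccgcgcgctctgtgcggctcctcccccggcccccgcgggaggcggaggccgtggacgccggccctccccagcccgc
The Alb window held both a C/EBP pair and CCAAT boxes, the printed Rorb window a CCAAT box and a GC box, and the Apoa1 and Arsb windows none of the 3 words.

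Apoa1 was abundant in every class 2 library. Its values were 12.73, 8.08, 9.47 and 8.32 in WT numbers 1 to 4 and 14.40, 14.40, 13.27 and 14.40 in TGA numbers 1 to 4. Every TGA value lay above every WT value, and WT number 1 was the WT library nearest to TGA. The difference was 4.47 (SE 0.89, limma adjusted p = 0.0147), and 5.49 (SE 0.90, limma adjusted p = 0.00117) without WT number 1. The Apoa1 call was lost without WT number 2 (limma adjusted p = 0.176), number 3 (0.0682) or number 4 (0.182), and without TGA number 1 (0.0569), number 2 (0.0695) or number 4 (0.0885). In rank, Apoa1 stood between 3 and 5 in the TGA libraries, and at 6, 53, 20 and 43 in WT numbers 1 to 4.

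Rorb encodes the beta form of the retinoic acid receptor-related orphan receptors. Its values were 13.42, 12.73, 12.98 and 13.42 in WT and 9.38, 7.70, 6.96 and 7.62 in TGA. All 4 WT libraries, number 1 included, sat close together and above every TGA library. The difference was -5.22 (SE 0.92, limma adjusted p = 0.00385) and -5.13 (SE 1.01, limma adjusted p = 0.0128) without WT number 1. Rorb ranked between 4 and 7 among the genes of each WT library and between 23 and 213 in the TGA libraries. In every WT library Rorb stood above Alb, and whether the reads counted for Rorb came from its own transcript was not tested. Its call held when any single class 2 library was left out.

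Gm31305, like Rorb, was high in all 4 WT libraries. Its values were 11.73, 12.32, 12.56 and 12.56 in WT and 9.91, 8.04, 8.42 and 8.67 in TGA, with no overlap. The difference was -3.53 (SE 0.64, limma adjusted p = 0.00385), and -3.72 (SE 0.70, limma adjusted p = 0.00915) without WT number 1. This call, too, held when any single class 2 library was left out. Without stated strand, reads of a non-coding gene and of a gene on the other strand cannot be told apart.

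LOC108168367 and Arsb stood high in rank in WT and had values near the bottom of the scale in TGA. In WT numbers 1 to 4, LOC108168367 ranked 209, 117, 40 and 39, and Arsb ranked 243, 27, 119 and 23. LOC108168367 had values of 6.84, 7.30, 8.39 and 8.46 in WT and 2.79, 0, 1.17 and 1.54 in TGA, a difference of -6.37 (SE 1.35, limma adjusted p = 0.0273). Arsb had 6.75, 9.26, 7.28 and 9.13 in WT and 2.50, 1.55, 2.10 and 1.01 in TGA, a difference of -6.31 (SE 1.37, limma adjusted p = 0.0329). Neither gene's groups overlapped, and WT number 1 held the lowest WT value of each. Both had a limma adjusted p of 0.0223 without WT number 1. The LOC108168367 call was lost without WT number 2 (limma adjusted p = 0.109), 3 (0.161) or 4 (0.182) and without TGA number 2 (0.14), 3 (0.0663) or 4 (0.0885). The Arsb call was lost without WT number 2 (limma adjusted p = 0.285), 3 (0.0979) or 4 (0.207) and without TGA number 1 (0.0569), 2 (0.14), 3 (0.0663) or 4 (0.149).

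**Figure D2:**
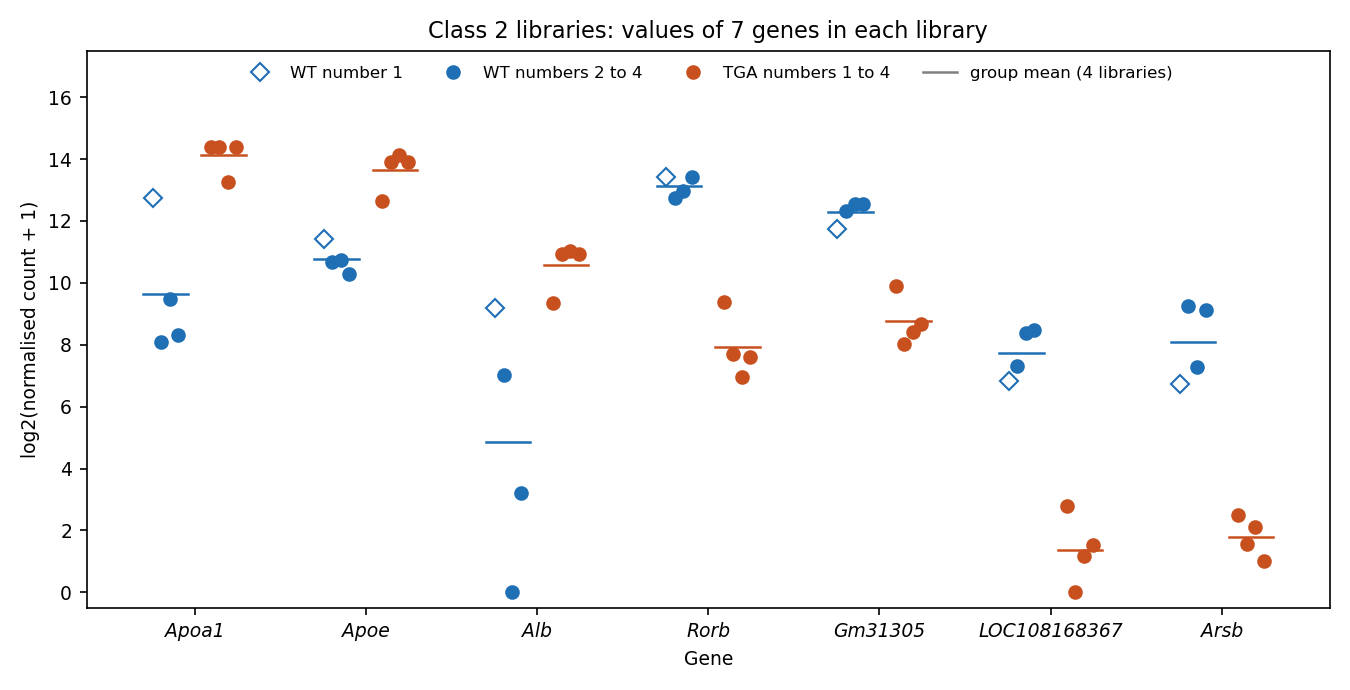
Each point is a library's log2(normalised count + 1) for 7 genes, with WT number 1 as an open diamond, the other WT libraries in blue, TGA in orange and a line at each group's mean over 4 libraries. TGA lies above WT for Apoa1, Apoe and Alb and below WT for Rorb, Gm31305, LOC108168367 and Arsb, without overlap.

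Among genes whose groups did not overlap but whose adjusted p was above 0.05, several were well known liver products. Apoe, the apolipoprotein that carries remnants to the liver, had 11.43, 10.67, 10.75 and 10.27 in WT and 12.65, 13.90, 14.15 and 13.90 in TGA, a difference of 2.87 (SE 0.67, limma adjusted p = 0.082). Alb, which encodes albumin, had 9.20, 7.01, 0 and 3.22 in WT and 9.36, 10.94, 11.05 and 10.94 in TGA (limma adjusted p = 0.283). For Alb, WT number 1 lay just below the lowest TGA library and far above the other WT libraries. Without WT number 1 the limma adjusted p was 0.0418 for Apoe and 0.0467 for Alb. Aldh1l1, the folate enzyme that releases carbon dioxide from formyl-tetrahydrofolate, had 8.31, 0, 4.94 and 1.13 in WT and 8.73, 8.84, 8.93 and 8.88 in TGA (limma adjusted p = 0.297). Eef2, the factor that moves the ribosome along its mRNA, had 6.60, 0, 0 and 0.60 in WT and 7.07, 6.74, 7.16 and 7.40 in TGA (limma adjusted p = 0.297). For Aldh1l1 and Eef2 the TGA libraries were close together while WT number 1 lay just below them and far above the other WT libraries. Both genes had a limma adjusted p of 0.0456 without WT number 1.

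Serping1, the inhibitor of the first complement protease, Serf2, the gene for the secreted peptide adropin (Enho), the mitochondrial chaperone gene Hspa9 and the major urinary protein gene Mup20 were the other TGA-high genes named by the same rule. Each was listed at 0 in WT numbers 2 to 4. Serping1 had 1.52 in WT number 1 and 3.37, 2.60, 4.04 and 5.69 in TGA (limma adjusted p = 0.212). Hspa9 had 4.75 in WT number 1 and 6.27, 5.03, 6.05 and 5.75 in TGA (limma adjusted p = 0.297). Mup20 had 3.05 in WT number 1 and 5.61, 3.81, 4.91 and 7.29 in TGA (limma adjusted p = 0.297). Without WT number 1 the limma adjusted p was 0.0509 for Serping1, 0.0467 for Hspa9 and 0.0625 for Mup20. Mup20 belongs to a cluster of related genes, and whether reads were shared with its other members was not tested.

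On the TGA-low side, 2 abundant transcripts missed the threshold with separate groups. Spop, the substrate adaptor of a cullin ubiquitin ligase, had 11.07, 11.54, 11.77 and 11.54 in WT and 9.96, 8.78, 7.80 and 8.83 in TGA, a difference of -2.64 (SE 0.66, limma adjusted p = 0.152). Pigr, the receptor that carries immunoglobulin A into bile, had 12.98, 13.42, 13.71 and 12.98 in WT and 11.81, 11.58, 10.94 and 10.78 in TGA, a difference of -2.0 (SE 0.53, limma adjusted p = 0.2). For both, WT number 1 lay with the other WT libraries. Zfp113, a zinc finger gene, had 8.24, 10.19, 7.47 and 9.15 in WT and 6.75, 2.10, 2.62 and 4.72 in TGA (limma adjusted p = 0.212). The non-coding 4932431P20Rik had 6.38, 8.03, 5.24 and 7.53 in WT and 3.28, 0, 0 and 0 in TGA (limma adjusted p = 0.2). The limma adjusted p without WT number 1 was 0.0489 for Spop and 0.0623 for Pigr.

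Zeros did not fall evenly on both sides. No tested gene was at 0 in all 4 WT libraries and above 0 in all 4 TGA libraries, which the few zeros of WT number 1 allow for only 75 genes at most. In the other direction, 51 genes (1.05%) were above 0 in every WT library and at 0 in every TGA library. Without WT number 1, 203 genes (4.16%) were at 0 in the 3 WT libraries and above 0 in the 4 TGA libraries, against 51 (1.05%) in the other direction. Gm34067, a long non-coding RNA gene, and LOC108169096 belonged to the WT side of this pattern: Gm34067 had 0.41, 4.58, 5.13 and 2.36 in WT and LOC108169096 had 0.53, 6.02, 2.91 and 5.11, while both were listed at 0 in all 4 TGA libraries. Their limma adjusted p was 0.178 and 0.2 with all libraries, and 0.0158 and 0.0223 without WT number 1.

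The 45 genes higher in TGA without WT number 1 were mostly genes at 0 in the remaining WT libraries. WT numbers 2 to 4 were at 0 in 3 of 3 libraries for 31 of the 45 genes, in 2 of 3 for 9, in 1 of 3 for 3 and in none for 2, Apoa1 and Apoe. All 45 were above 0 in all 4 TGA libraries. WT number 1 was above 0 and above every other WT library for all 45, and above the lowest TGA library for 34 of them. Serpina3k, a serine protease inhibitor of plasma, showed this pattern with 8.38, 0, 4.24 and 0 in WT and 8.10, 9.55, 10.60 and 9.30 in TGA (limma adjusted p = 0.0158 without WT number 1, 0.2 with it). Uox, the urate oxidase of liver peroxisomes, had 6.12 in WT number 1, was listed at 0 in the other WT libraries, and had 5.65, 6.64, 6.81 and 7.18 in TGA (limma adjusted p = 0.0378 without WT number 1, 0.283 with it). C1s1, a protease of the first complement component, had 4.19 in WT number 1, was at 0 in the other WT libraries, and had 6.72, 5.53, 3.68 and 5.81 in TGA (limma adjusted p = 0.0456 without WT number 1, 0.283 with it). The share of tested values at 0 was 59.6% in the 3 WT libraries and 44.9% in TGA. With WT number 1 kept and the number of genes above 0 as a covariate, 6 genes passed, 1 higher and 5 lower. The covariate was not fitted without WT number 1. The part of detection in the 45 calls was not tested.

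The 9 genes lower in TGA without WT number 1 were Rorb, Gm31305, LOC108168367, Arsb, Gm34067, LOC108169096, Spop, Prkd3 and Jag2. Prkd3, a protein kinase D gene, and Jag2, a Notch ligand gene, are named after their values were seen. Prkd3 had 1.17, 3.41, 6.27 and 7.38 in WT and Jag2 had 0.66, 3.81, 2.91 and 3.19, and both were listed at 0 in all 4 TGA libraries. In 8 of the 9 genes WT number 1 was the lowest WT library, and Rorb was the exception.

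**Figure D3:**
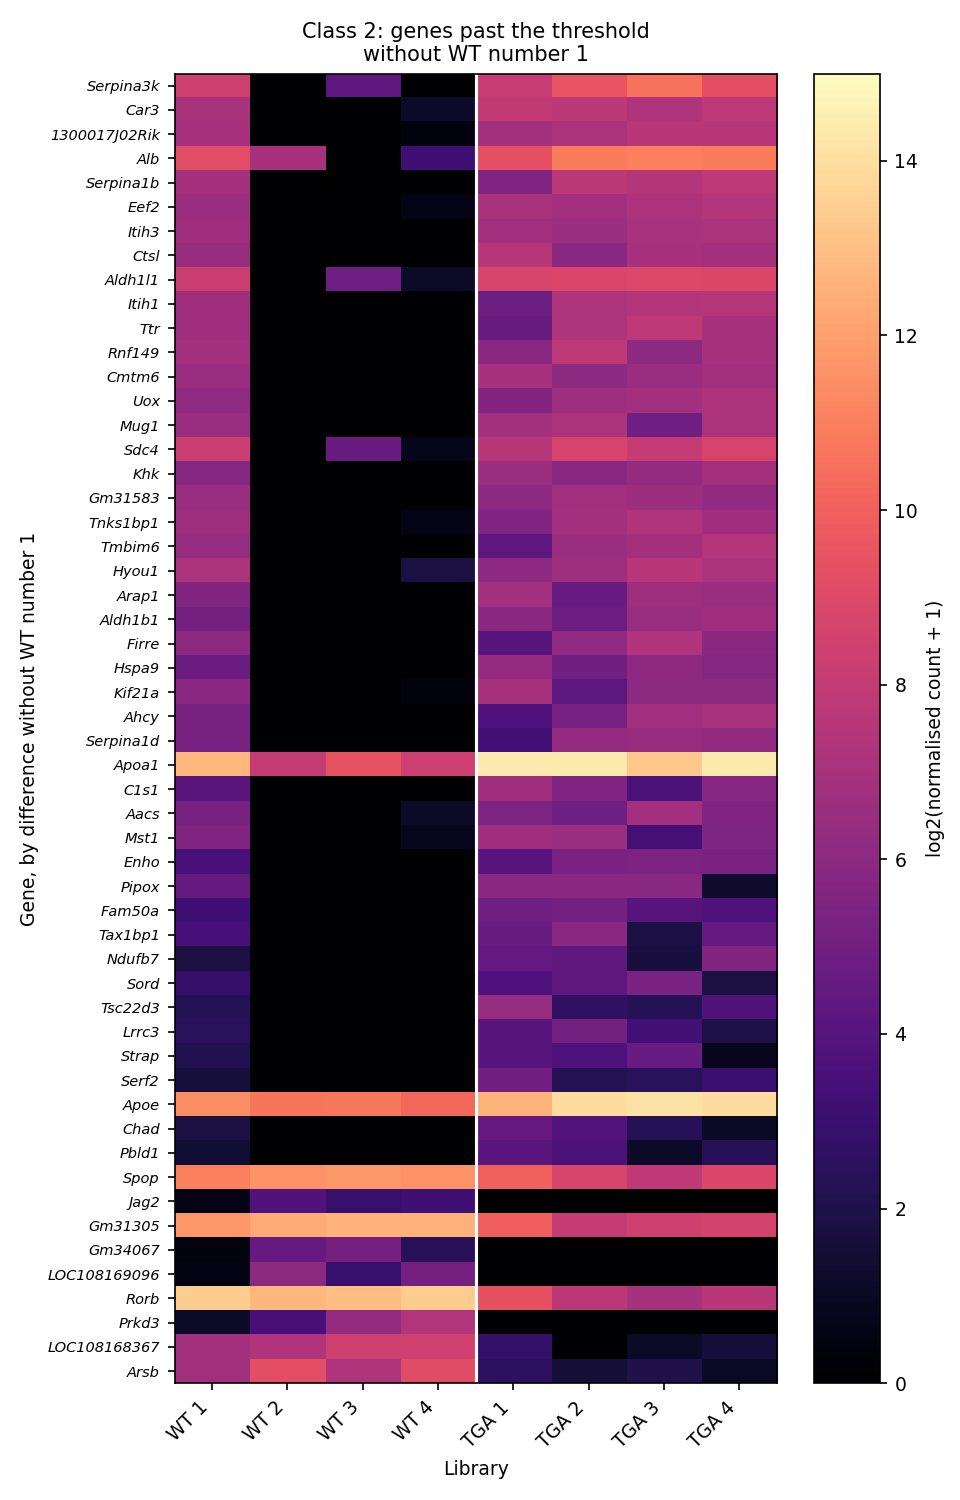
Each cell is a library's log2(normalised count + 1) for the 54 genes past the threshold without WT number 1, ordered by their difference, with WT left and TGA right of the white line. WT numbers 2 to 4 are at 0 in 3 of 3 libraries for 31 of the 45 higher genes, where WT number 1 is above 0.

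Lists of liver genes were read by counts and medians. Of 354 distinct tested genes in 28 lists with at least 5 tested members, 295 had a positive difference (83.3%), against 53.9% of all tested genes (58.2% without WT number 1). Apoa1 was the only list gene that passed the adjusted threshold (0.103% of all tested genes passed), and 18 list genes, all higher, passed without WT number 1 (1.11% of all tested genes passed). In 26 of the 28 lists the median difference was above the 0.15 of all tested genes, and the same number held without WT number 1 (0.33 over all genes) and with centred libraries (-0.14 over all genes). The exceptions with all libraries were small nucleolar and Cajal body RNAs and the list of RNase P, MRP, 7SK and vault RNAs. Medians include genes with values of 0, so their size depends on the 1 that is added to the normalised count.

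The largest medians were those of protease inhibitors and carriers of plasma. Of 7 tested serpin A protease inhibitors, all 7 had positive differences, against 53.9% of all tested genes. Their median was 4.24, and 5.55 without WT number 1. Without WT number 1, 3 of them passed the threshold as higher, against 0.923% of all tested genes. Serpina1b, an alpha-1-antitrypsin gene, had 6.89, 0, 0 and 0 in WT and 5.54, 7.72, 7.42 and 7.74 in TGA (limma adjusted p = 0.297, and 0.0418 without WT number 1). Serpina1e had 8.60, 6.20, 6.03 and 0 in WT and 8.50, 10.91, 10.61 and 10.95 in TGA (limma adjusted p = 0.346). For both genes WT number 1 lay above TGA number 1, so the groups overlapped. The Serpina1 genes are close copies, and reads may be split among them.

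Plasma carriers other than apolipoproteins had a positive difference in 11 of 12 tested members, with a median of 2.96, and 4.19 without WT number 1. Trf, transferrin, which carries iron, had 12.08, 10.22, 10.28 and 10.87 in WT and 12.08, 13.27, 13.42 and 13.27 in TGA, a difference of 2.15 (limma adjusted p = 0.297). Ahsg, fetuin-A, had 8.06, 6.85, 2.30 and 0 in WT and 8.86, 9.08, 9.08 and 9.06 in TGA (limma adjusted p = 0.353). Hp, the haemoglobin carrier haptoglobin, had 6.23, 0, 3.78 and 0 in WT and 6.87, 5.75, 7.30 and 7.35 in TGA (limma adjusted p = 0.536). Groups did not overlap for 2 of the 12 carriers with all libraries and for 7 without WT number 1, when 1.09% and 8.59% of all tested genes did so with TGA higher.

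Apolipoproteins had a positive difference in 9 of 12 tested members, and 1 of them, Apoa1, rose. The median was 1.62, and 2.01 without WT number 1, when Apoa1 and Apoe passed (0.923% of all tested genes were then called higher). Apob, the protein of very low-density lipoprotein, had 7.30, 0, 0 and 4.44 in WT and 7.47, 7.79, 8.13 and 7.76 in TGA (limma adjusted p = 0.485). Apoa2, another protein of HDL, had 4.38, 0, 0 and 0 in WT and 5.21, 5.38, 3.66 and 4.72 in TGA (limma adjusted p = 0.501). Apob did not overlap between the groups and Apoa2 did, through TGA number 3.

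Clotting, complement and acute phase genes gave no call with all libraries. Complement had a positive difference in 14 of 14 tested members (median 2.64), coagulation in 13 of 16 (median 1.55) and the acute phase in 10 of 12 (median 1.93). F10, clotting factor X, had 6.4, 0, 0 and 0.88 in WT and 5.98, 5.91, 6.82 and 4.96 in TGA (limma adjusted p = 0.485). Fgb, the fibrinogen beta chain, had 5.80, 0, 0 and 0 in WT and 4.16, 6.71, 5.70 and 5.98 in TGA (limma adjusted p = 0.487). C4b, complement component 4, had 6.60, 0, 6.49 and 0.93 in WT and 6.89, 6.42, 6.83 and 7.91 in TGA (limma adjusted p = 0.61). WT number 1 lay inside the TGA range for these 3 genes, and WT number 3 joined it for C4b. Itih3, which carries hyaluronan, had 6.72 in WT number 1, was listed at 0 in the other WT libraries, and had 6.77, 6.58, 7.03 and 7.10 in TGA (limma adjusted p = 0.334, and 0.0467 without WT number 1).

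No urea cycle gene passed the threshold with or without WT number 1. In this list, 8 of 9 tested members had a positive difference (median 2.70). Cps1, which makes carbamoyl phosphate, had 8.60, 6.32, 6.09 and 7.36 in WT and 8.60, 9.50, 10.75 and 10.60 in TGA, a difference of 2.77 (limma adjusted p = 0.634). Arg1, arginase, had 6.57, 0, 6.0 and 0 in WT and 4.93, 7.0, 7.21 and 6.84 in TGA (limma adjusted p = 0.582). Neither gene separated the groups: WT number 1 reached the TGA range in both, and WT number 3 did so for Arg1.

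Amino acid and folate enzymes had a positive difference in 22 of 26 tested members (median 1.88), gluconeogenesis and glucose handling in 16 of 16 (median 2.41), fatty acid synthesis in 16 of 19 (median 1.53) and fatty acid oxidation in 16 of 18 (median 1.66). None of these genes passed with all libraries. Without WT number 1, the folate enzyme gene Aldh1l1, the S-adenosylhomocysteine hydrolase gene Ahcy, the fructokinase gene Khk and the acetoacetyl-CoA synthetase gene Aacs passed. All were higher in TGA, as were 0.923% of all tested genes at that threshold. Khk had 5.79 in WT number 1, was at 0 in the other WT libraries, and had 6.59, 5.91, 6.32 and 6.87 in TGA (limma adjusted p = 0.297, and 0.0467 without WT number 1). Fasn, fatty acid synthase, had 7.21, 6.43, 0 and 0 in WT and 7.26, 7.71, 7.20 and 8.03 in TGA (limma adjusted p = 0.544).

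Cytochrome P450 genes had a positive difference in 15 of 16 tested members (median 1.99), of 48 in the table. Cyp2e1, an ethanol-oxidising enzyme of the central vein region, had 9.22, 7.68, 7.23 and 9.0 in WT and 9.62, 9.72, 10.91 and 11.21 in TGA, a difference of 2.08 (limma adjusted p = 0.525). Cyp2f2, a periportal enzyme, had 7.82, 6.25, 0 and 0.92 in WT and 8.11, 8.32, 7.42 and 7.93 in TGA (limma adjusted p = 0.509). Cyp2e1 separated the groups and Cyp2f2 did not, through TGA number 3. Periportal genes had a positive difference in 16 of 19 tested members (median 2.32) and pericentral genes in 10 of 13 (median 0.99). Pigr stands among the periportal genes and goes the other way. Male-biased genes of mouse liver all had a positive difference (10 of 10, median 2.90), and the labels do not give the animals' sex. Selenbp2, one of them, had 7.61, 4.30, 0 and 0 in WT and 6.45, 7.75, 9.20 and 9.25 in TGA (limma adjusted p = 0.359).

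Transcription factors of hepatocytes had a positive difference in 23 of 25 tested members (median 1.54), and 2.55 was the median without WT number 1. Hnf4a, the nuclear receptor that drives hepatocyte genes, had 5.27 in WT number 1, was listed at 0 in the other WT libraries, and had 5.15, 4.34, 6.55 and 6.66 in TGA (limma adjusted p = 0.422). Endoplasmic reticulum chaperones and unfolded protein response genes had a positive difference in 17 of 19 (median 1.56). Hsp90b1, the chaperone Grp94, had 7.54, 0, 6.09 and 1.29 in WT and 6.76, 7.59, 9.21 and 8.30 in TGA (limma adjusted p = 0.544). Hyou1, another chaperone of that compartment, passed without WT number 1 (limma adjusted p = 0.0467). Bile acid genes had a positive difference in 6 of 7 tested members (median 0.99), conjugation and antioxidant enzymes in 16 of 17 (median 1.89) and metal handling genes in 7 of 9 (median 2.10).

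Lists of genes used by every cell also had mostly positive differences, and none of their members passed with all libraries. Housekeeping and translation factors had a positive difference in 7 of 8 tested members (median 2.47), nuclear-encoded respiratory chain genes in 13 of 13 (median 1.60, of 76 in the table) and cytosolic ribosomal proteins in 19 of 22 (median 1.47, of 86 in the table). Ndufb7, a subunit of respiratory complex I, had 1.81, 0, 0 and 0 in WT and 4.48, 4.34, 1.74 and 5.60 in TGA (limma adjusted p = 0.152, and 0.0418 without WT number 1). Rplp2, a ribosomal stalk protein, had 5.95, 0, 0 and 2.36 in WT and 2.37, 6.80, 6.66 and 5.51 in TGA (limma adjusted p = 0.562). Mitochondrial-encoded genes had a positive difference in 5 of 7 and the small median of 0.43, and 1.46 without WT number 1. ND5, another complex I subunit, had 9.59, 8.06, 10.31 and 8.54 in WT and 8.03, 6.58, 8.26 and 8.84 in TGA, so the groups overlapped (difference -1.20, limma adjusted p = 0.791).

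**Figure D4:**
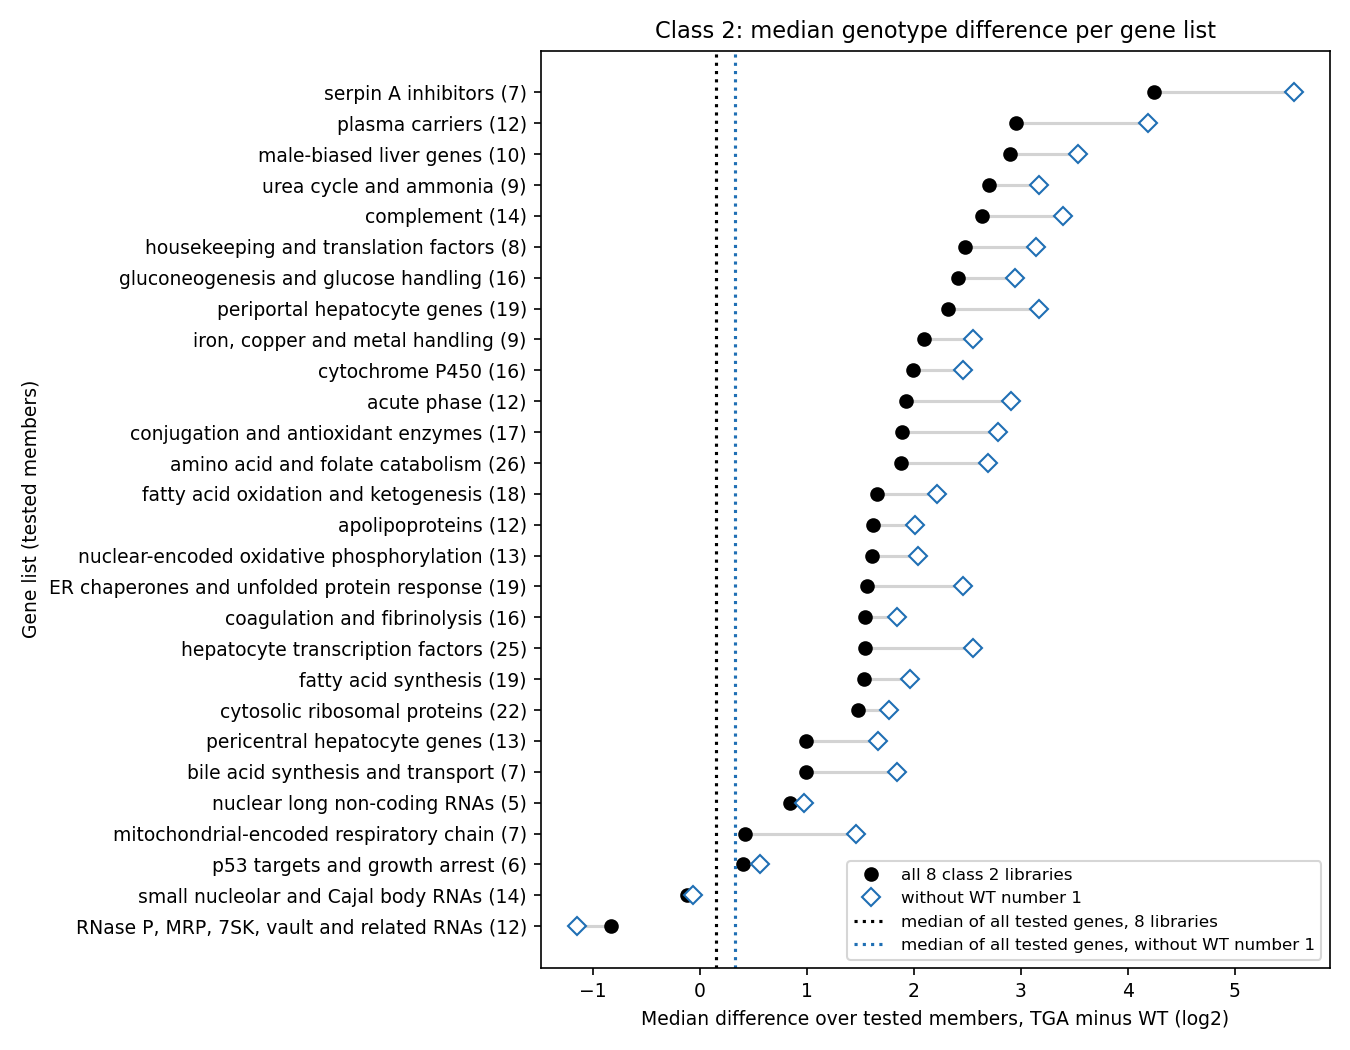
Points give the median difference, TGA minus WT, over the tested members of each of 28 gene lists (number tested in parentheses), filled with all 8 libraries and open without WT number 1. Dotted lines mark the medians of all tested genes, 0.15 and 0.33, and 26 lists lie above the first.

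Short non-coding RNAs differed in direction among themselves. In the list of RNase P, MRP, 7SK, vault and related RNAs, 3 of 12 tested members had a positive difference, with a median of -0.83, and -1.15 without WT number 1. Without WT number 2 that median was -0.09. Rn7s2, a copy of the 7SL RNA of the signal recognition particle, had 7.19, 7.88, 8.54 and 7.48 in WT and 3.30, 6.26, 5.70 and 4.46 in TGA, a difference of -2.84 (limma adjusted p = 0.544). Rn7sk, which binds and holds back the elongation factor P-TEFb, went the other way with 9.66, 7.10, 7.01 and 5.50 in WT and 8.64, 12.08, 11.73 and 11.10 in TGA, a difference of 3.57 (limma adjusted p = 0.544). Rnu12, an RNA of the minor spliceosome, had 3.75, 0, 0 and 0 in WT and 2.04, 6.62, 1.30 and 6.09 in TGA (limma adjusted p = 0.544). Rn7s2 separated the groups, while Rn7sk did not, because TGA number 1 lay below WT number 1. Rn7s1 and Rn7s2 are near-identical copies, and their reads may be split. Scarna2, a guide RNA of Cajal bodies, had 5.37, 8.56, 6.36 and 5.79 in WT and 0, 1.82, 4.32 and 0.87 in TGA without overlap (limma adjusted p = 0.367). Small nucleolar and Cajal body RNAs had a positive difference in 6 of 14 tested members (median -0.12).

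Nuclear long non-coding RNAs had a positive difference in 3 of 5 tested members (median 0.84). Malat1, which sits in nuclear speckles, had 9.95, 10.48, 9.13 and 8.18 in WT and 9.84, 11.73, 11.81 and 11.26 in TGA, a difference of 1.72 (limma adjusted p = 0.576). Among 6 tested p53 targets and growth arrest genes, 4 had a positive difference (median 0.41). Zmat3, an RNA-binding target of p53, had 3.10, 3.81, 2.91 and 7.10 in WT and was listed at 0 in all 4 TGA libraries (limma adjusted p = 0.346). Bbc3, which encodes the cell death protein Puma, had 3.98, 0, 0 and 0 in WT and 6.23, 5.88, 0 and 4.32 in TGA (limma adjusted p = 0.561). These 2 genes of the same list thus had their zeros on opposite sides.

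The labelled tissue was checked with markers of hepatocytes and of other cells. Of the hepatocyte markers, Apoa1, Cps1 and Cyp2e1 were above 0 in all 8 libraries. Alb and Fabp1 were listed at 0 in WT number 3, and Ttr in WT numbers 2 to 4. Serpina1a was listed at 0 in WT numbers 2 to 4 and in TGA number 2. Of 16 endothelial markers, 0 to 10 were above 0 in a WT library and 1 to 3 in a TGA library, with summed normalised counts of 0 to 113 and 5.63 to 75.3. Of 16 Kupffer cell and macrophage markers, 0 to 5 were above 0 in WT (sums 0 to 22.8) and 0 to 1 in TGA (sums 0 to 8.77). Of 16 stellate cell and fibroblast markers, 0 to 9 were above 0 in WT (sums 0 to 6.21) and 0 to 2 in TGA (sums 0 to 15.6). The lymphocyte markers numbered 15, with 1 to 6 above 0 in WT (sums 2.04 to 99.5) and 0 to 1 in TGA (sums 0 to 11.5). Cholangiocyte markers above 0 numbered 0 to 6 of 10 in WT and 0 to 4 in TGA, neutrophil markers 0 to 2 of 10 in WT and 0 to 1 in TGA, and all 7 erythroid markers were at 0 in all 8 libraries. The macrophage markers Clec4f, Vsig4 and Adgre1 were at 0 throughout. The part of these cells in the differences was not tested.

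The class 2 difference was set against that of the other classes in 1 fit of all 24 libraries. The fit treated the libraries as independent, though those of different classes may share an animal, which the labels do not say. By limma, 0 of 4875 genes passed for the class 2 difference minus the mean of the class 4 and class 8 differences, and before adjustment 171 (3.51%) were higher and 71 (1.46%) lower. The count was again 0 when WT number 1 was left out, with 313 (6.42%) higher and 77 (1.58%) lower before adjustment at a threshold of 0.05. First in that ranking was C1s1, whose class 2 difference exceeded that of the other classes by 5.66 (SE 1.59, limma adjusted p = 0.912). Rorb had a difference of -1.69 (SE 0.92) in class 4 and -4.69 (SE 0.92, limma adjusted p = 0.0289) in class 8, beside -5.22 in class 2. Apoa1 had 2.71 (SE 0.89) in class 4 and 3.95 (SE 0.89, limma adjusted p = 0.0937) in class 8, beside 4.47 in class 2. Arsb had -2.0 (SE 1.37) in class 4 and -6.13 (SE 1.37, limma adjusted p = 0.0937) in class 8, beside -6.31 in class 2. Thus the 3 genes had the same sign in each class, though none of the 3 passed the adjusted threshold in class 4. No gene's difference was shown to be particular to class 2.

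List medians were larger in class 2 than in class 4. The median of the serpin A list was 4.24 in class 2, 0.06 in class 4 and 1.05 in class 8. Plasma carriers had medians of 2.96 in class 2, -0.38 in class 4 and 2.59 in class 8. Over all tested genes the medians were 0.15, -0.15 and 0.11. In class 4, 18 of the 28 lists had a median above that of all genes, and in class 8 it was 25 of 28. The medians of the other classes include WT number 1 of class 4, with 14469 genes above 0, and TGA number 3 of class 8, with 9096. Medians without these libraries were not computed for class 4 and class 8. These differences between classes are medians without a test.

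Promoter words were counted in the 250 bases before the start for the genes called without WT number 1. Where RefSeq lists several starts for a gene, the first listed was used. RefSeq promoters on GRCm38.p6 matched 37 of the 45 higher and 7 of the 9 lower genes, and 3597 of all tested genes. The C/EBP pair TTGCNNAA was found on either strand in 11 of 37 higher genes, Alb, Uox, Serpina1b and C1s1 among them, in 0 of 7 lower genes, and in 7.12% of tested genes. The other listed start of Rorb, not counted, has a C/EBP pair in its 250 bases. CCAAT was found in 7 of 37 and 2 of 7, against 34.8% of tested genes, and TATAAA in 3 of 37 and 0 of 7, against 6.95%. The GC box GGGCGG was found in 15 of 37 and 4 of 7, against 58.7% of tested genes. A nuclear receptor repeat with a spacer of 1 base was in none of these promoters and in 0.306% of tested genes, and the HNF1 palindrome was in none and in 0% of tested genes. Matches of different words overlapped in 21 tested promoters. The genes were called with results known, so these counts carry no test, and a match is a run of letters and not a site.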

How the data were processed

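The 24 liver libraries were made from total RNA and sequenced as 75 bp single ends, per the labels' protocols. TopHat, edgeR and the mouse build mm9 are named in the submitters' processing notes, with no versions given. The deposited table holds natural log values of a normalised count plus 1; this unit was read from the values. A value that 942 genes share in WT number 1 and 655 genes in the first WT library of class 4 equals, within 1e-09, the natural log of a count of 1 plus 1, summed over 2 libraries and divided by 24, and 20 of the 24 libraries share the highest value. This is what averaging log values by rank across libraries gives, so a value stands roughly for a gene's rank within its library. A level or difference is thus one of ranks put on a common scale. Aligner settings, annotation and normalisation method: not given in the sources used here. Dividing by ln 2 gave log2(normalised count + 1).

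Genes that reached a natural log value of 1 in 4 or more of 24 libraries were tested (4875 genes). limma 3.58.1 in R 4.3.3 fitted 6 group means over all 24 libraries with a mean-dependent prior, and p-values were adjusted by Benjamini-Hochberg over all tested genes with a threshold of 0.05. The spread is thus shared with class 4 and class 8 libraries. Library counts were compared by two-sided exact permutation tests (scipy 1.17.1). The fits were tested on simulated data with known changes. A deposited 0 can mean too few reads, and depth is unknown, so no interval or detection floor was computed.

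Genes named were those past the threshold, up to 10 per direction with the smallest p among genes whose groups do not overlap, up to 10 past the threshold without WT number 1, up to 4 per list with the largest absolute difference, up to 5 of the contrast between classes, and 5 check genes. Exceptions are marked. The libraries, lists and tests were chosen with earlier results of these data known. Alternatives were the left-out libraries, the filter, the pseudocount, centring, a detection covariate, the prior, the libraries fitted, array weights and a block on library number. Samples were grouped by title and genotype. Of the symbols, 90.6% matched the RefSeq gene table, and 11 symbols of the lists, such as Selenop, have no line in the table under that name.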

Additional observations from a re-analysis of the deposited data

Results flagged for a closer look

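Within groups of 4, the gap of the highest or lowest library to its nearest neighbour was compared with Dixon's 95% critical value for 28 genes in both groups, 56 groups in all. Chance alone marks about 1 in 20 groups, and the 16 groups with 3 or more equal values were left out. Of the 40 groups compared, 4 passed. TGA number 1 was low for Apoe, at 12.65 against 13.90 to 14.15 in the other TGA libraries. It was also low for Alb, at 9.36 against 10.94 to 11.05, and for Enho, at 4.01 against 5.30 to 5.42. TGA number 1 had the fewest genes above 0 of the TGA libraries, 2816. WT number 1 was high for Eef2, at 6.60 against 0 to 0.60 in the other WT libraries. No gene's class 2 difference passed a test against the other classes, by limma.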

How the results depend on the processing

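With all libraries 5 genes were called between TGA and WT. Leaving out 1 library at a time gave 2 to 54 genes, the highest without WT number 1. The count was 0 with no filter on low values (limma, 21390 genes, of which 505 were higher and 1547 lower before adjustment), 2 with one prior for all genes, 3 with the 8 class 2 libraries alone, 10 with the filter applied within class 2, and 11 with array weights. Fitting the 8 libraries alone gave 91 genes without WT number 1. A pseudocount of 10 left 4 genes, all lower, a robust prior left 4, and centred libraries 5. Without the 4 libraries with over 7000 genes above 0, a choice made after seeing the data, 6 genes passed and 3 of the 5 were among them; Rorb then had a limma adjusted p of 0.0676. In 21 alternatives, Rorb and Gm31305 passed in 18, LOC108168367 in 12, Apoa1 in 10 and Arsb in 9. The cause of these changes was not tested.

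The numbers of the libraries did not pair them: deviations of same-numbered TGA and WT libraries correlated at -0.139, -0.040, -0.012 and -0.009. A replicate block left the count at 5, and in the 8 libraries alone the replicate block left 1. The difference between classes gave 0 genes by limma in every setting run.

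The TGA minus WT difference in genes above 0 was -3965 to 394 over the left-out libraries and turned to 253.8 when only natural log values of 1 or more were counted (exact permutation p = 0.514). Of the named genes, 3 changed sign without WT number 2, with these lowest and highest differences over left-out libraries: Cyp27a1 from -0.11 to 2.41, COX1 from -0.49 to 2.08 and ND6 from -1.34 to 1.87. Kcnq1ot1 turned to 0.18 without the 4 libraries of over 7000 genes. List medians moved by more than the spread in 17 cases and by less in 571. Detection limits every gene at or near 0 in WT numbers 2 and 3, where a change down could not be seen.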

Other observations

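Cell division genes were near the limit of what these libraries list. Of 22 DNA replication genes, which copy the genome before division, 1 was abundant enough to be tested, and 12, 0, 1 and 4 were above 0 in WT numbers 1 to 4, beside 2, 3, 3 and 3 in TGA numbers 1 to 4. Of 22 mitosis and cytokinesis genes, which part the chromosomes and the daughter cells, 2 were tested, and 12, 1, 2 and 8 were above 0 in WT and 1, 3, 1 and 5 in TGA. In both lists WT number 1, the library with the most genes above 0, held the highest count. The cytokinesis gene Anln, which encodes the actin-binding protein anillin, was at 0.06 and 0.45 in WT numbers 1 and 4 and listed at 0 in the other 6 class 2 libraries, and it was not tested. Of 18 genes of fetal liver and liver cancer, 4 were tested and 1 had a positive difference. Of 20 genes of cholesterol synthesis and uptake, 4 were tested and 2 had a positive difference, and of 23 interferon response genes 2 were tested and 1 had a positive difference. In the limma fits with and without WT number 1, no tested gene of these 5 lists passed the adjusted threshold in either direction.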
